A study of Mus musculus with 31 samples.

Results

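The genes described here are 8 mouse transcription factor (TF) genes that direct the development of endoderm, liver and pancreas, namely Hnf4a, Foxa2, Foxa3, Gata4, Gata6, Onecut1, Prox1 and Pdx1. They were chosen by name and are 8 of the 21938 protein-coding genes of the mouse annotation. Peaks of open chromatin were counted within 1 kb of any of their annotated transcription start sites (TSSs), in the gene body and within 50 kb of the gene. The data come from 1 ATAC-seq library of parental NIH-3T3 cells, an established mouse embryonic fibroblast line, which carried no TF transgene and for which the labels list no doxycycline, although the methods of the study describe doxycycline for its NIH-3T3 cells in general. In this assay the Tn5 transposase inserts sequencing adapters where nucleosomes leave the DNA free, and here 50000 cells were treated with 0.5 µM Tn5 for 30 min before, by the labels, 12 cycles of PCR, a number that the methods describe as set in part by qPCR. The study asked how the binding of TFs to mitotic chromosomes relates to their behaviour in interphase, and its other 30 samples, which overexpress 1 of 13 TFs or only rtTA3G after doxycycline, are not analysed here. A lone library gives no replicate error, so the values describe these cells in this preparation only.

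Hepatocytes and pancreatic cells arise from endoderm, whose genes are opened early by FOXA and GATA factors that can bind their sites on nucleosomes. HNF4A, ONECUT1 and PROX1 then shape the hepatocyte programme, and PDX1 sets up the pancreas. Fibroblasts are mesenchymal cells of another lineage.

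The fibroblast label was compared with promoter peaks at marker genes of 5 cell types. Of 15 fibroblast marker genes, 14 had a peak within 1 kb of a TSS, beside 53.7% of all protein-coding genes, with the highest fold enrichments at Fn1, which encodes fibronectin (10.52), and at the mesenchymal TF genes Twist1 (10.11) and Twist2 (9.06). Lum, which encodes the matrix proteoglycan lumican, was the fibroblast marker without such a peak. Fold enrichment is the number of fragments at the summit of a peak over the number that the peak caller expected there, with 1 added to each. Of 8 hepatocyte marker genes, only Afp, the alpha-fetoprotein gene of the fetal liver, had a promoter peak (8.14), 526 bp from its TSS. None of 7 cardiac marker genes had one. Of 8 endothelial markers 4 had one and of 8 epithelial markers 3, and the fold enrichment at the endothelial cadherin gene Cdh5 (12.82) was above that of every fibroblast marker. When the peak had to cover a TSS, the counts were 12 for fibroblast, 2 for endothelial and 0 for epithelial, hepatocyte and cardiac markers, beside 48.7% of all protein-coding genes. The lists also differ in sequence. A CpG-rich start, as defined below, was found at 0 of the 8 hepatocyte markers and at 4 of the 15 fibroblast markers. Of all protein-coding genes without such a start, 30.4% had a promoter peak.

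Promoter peaks were found at 2 of the 8 regulator genes, Gata4 and Foxa3, beside 53.7% of all protein-coding genes. The 3 peaks were 2 at Gata4 and 1 at Foxa3. When the peak had to cover a TSS, Gata4 was counted and Foxa3 was not, beside 48.7%. The Foxa3 peak also lay within 1 kb of a TSS of another protein-coding gene, which left Gata4 as the gene with promoter peaks of its own, beside 43.0% of all protein-coding genes. In the gene body, 3 of the 8 genes had peaks (Hnf4a 3, Gata4 2, Onecut1 1), beside 63.2%. Over the 275.2 kb of the 8 gene bodies this came to 2.18 peaks per 100 kb, and over all protein-coding gene bodies to 3.54. Within 50 kb of the gene, 7 of the 8 had at least 1 peak, beside 84.2%.

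The 46 peaks within 50 kb were spread unevenly over the genes, in an order that changed with the limits. Hnf4a had 12, Gata4 9, Foxa3 8, Onecut1 7, Pdx1 6, Gata6 3, Foxa2 1 and Prox1 0, where the median protein-coding gene had 5 (quartiles 2 and 9). With peaks under 5-fold enrichment left out, Gata4 had 6, Hnf4a 5, Onecut1 5, Foxa3 3, Pdx1 2, Gata6 2, Foxa2 1 and Prox1 0. Fold enrichment also depends on the expected number, so the peaks left out did not always hold fewer fragments. A peak left out near Hnf4a had 38 fragments (7.54 expected), and a peak kept near Gata6 had 20 (2.81 expected). Within 100 kb, Gata4 had 21, Hnf4a 18, Foxa3 17, Onecut1 10, Foxa2 7, Pdx1 7, Gata6 3 and Prox1 0. Outside the bodies, 20 peaks lay upstream and 20 downstream. Of all 46, 36 lay more than 1 kb from any TSS, and 8 lay within 1 kb of a TSS of another gene.

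**Figure D1:**
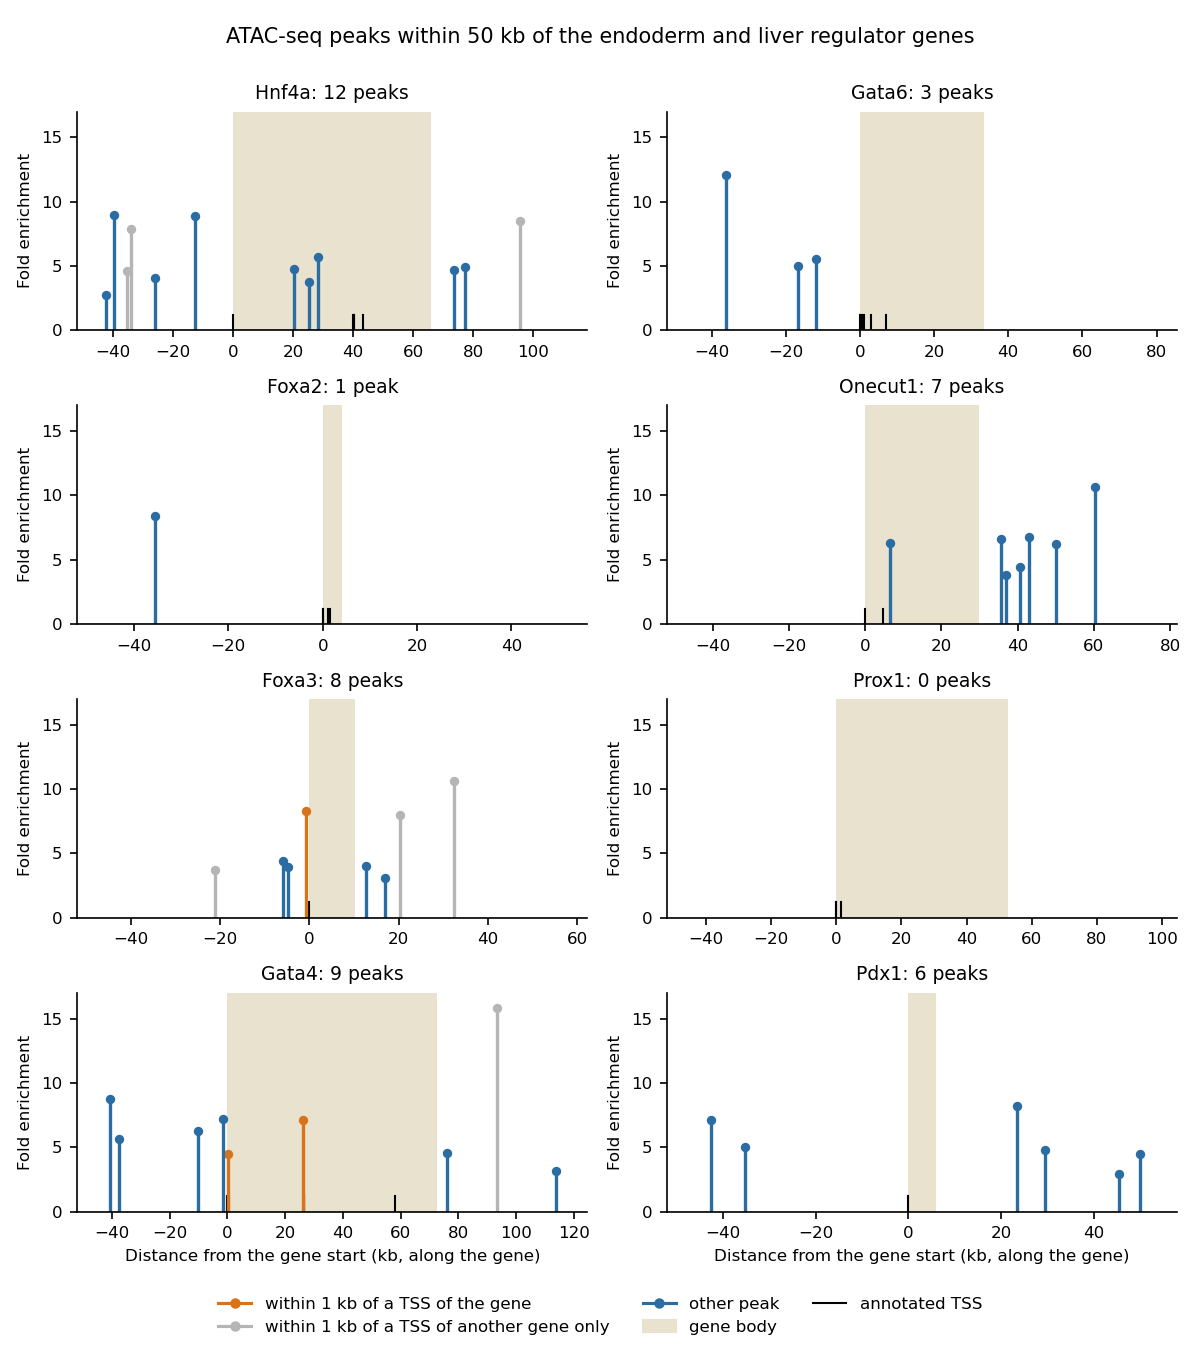
Fold enrichment at the summit (vertical axis) against the distance from the gene start in kb, along the direction of transcription, for every peak within 50 kb of each of the 8 genes. Stems are peaks, coloured by their distance to a TSS, shading is the gene body and short black bars are annotated TSSs. The panels of Foxa2 and Prox1 hold 1 and 0 peaks, and the peaks of Gata6 all lie upstream.

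The sequence around the TSS was compared next, since starts rich in CpG dinucleotides are open in many cell types. A start was called CpG-rich when the 1 kb centred on it had a GC content of at least 50% and a CpG frequency of at least 0.6 of that expected from its bases. By the first base of the gene, Onecut1 (0.786) and Prox1 (0.793) were CpG-rich, and neither had a promoter peak. Among all protein-coding genes, 82.9% of those with a CpG-rich start had a promoter peak, and 30.4% of the others. Gata4 and Foxa3, which had promoter peaks, both lacked a CpG-rich start by this base. Foxa3 fell just under the limit at 0.596. Several of the 8 genes have further starts inside the gene, and when any annotated start was considered, a choice made after the data were seen, 5 of the 8 genes were CpG-rich (Foxa2, Gata4, Gata6, Onecut1 and Prox1). Of these 5, Gata4 had a promoter peak, beside 82.0% of the protein-coding genes with such a start.

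Counted by start, 5 of the 27 annotated starts of the 8 genes had a peak within 1 kb, beside 45.2% of the starts of all protein-coding genes. Among their CpG-rich starts the count was 2 of 12, beside 84.8%. Both were starts of Gata4. The 12 belong to 5 genes and lie close together, so that they are not separate observations.

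**Figure D2:**
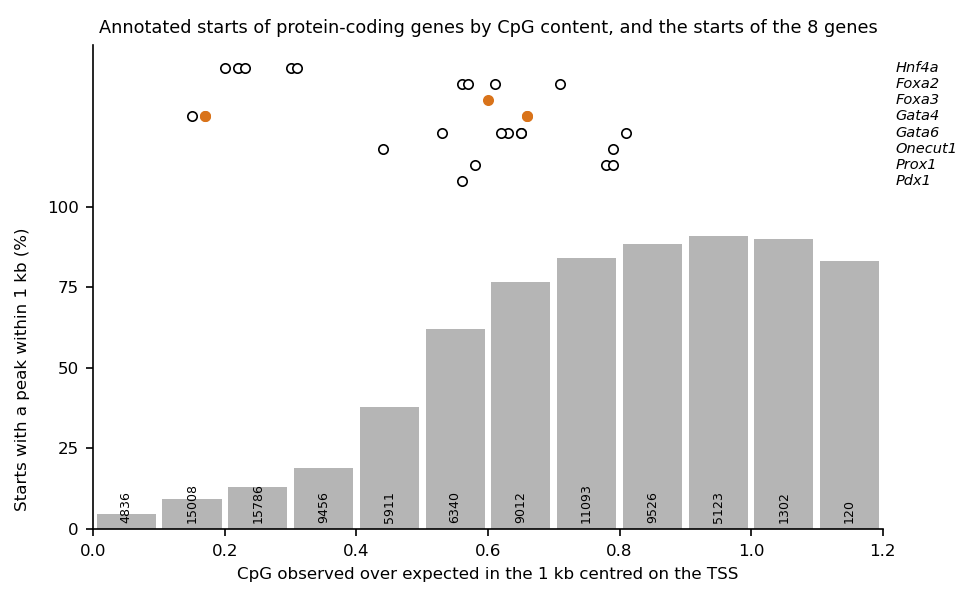
Share of annotated starts of protein-coding genes with a peak within 1 kb (bars, %, with the number of starts in each) against CpG observed over expected in the 1 kb centred on the start, the last bar taking all values from 1.1 up. Circles above the bars are the starts of the 8 genes at their own CpG value, filled where a peak lay within 1 kb, and their height only separates the genes. The share is 4.8% in the lowest bar and 91.0% between 0.9 and 1.0, and the open circles at 0.6 or more, of Foxa2, Gata6, Onecut1 and Prox1, stand over bars of 76.7% to 88.3%.

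Short sequence words were searched within 100 bases to either side of each summit, on both strands, in the 36 distal peaks, those farther than 1 kb from every annotated TSS, and in all 47192 distal peaks of the library. The words were TGACTCA for AP-1, GGAATG for TEAD, TGTGGTT for RUNX, AGATAA for GATA factors, TGTTTAC for forkhead factors, CAAAGTCCA for HNF4 and ATCAAT for ONECUT factors. Each word was counted on its own, so that words may overlap. A match is a description of the sequence and does not show binding. AP-1 words were found in 11 of the 36 peaks (30.6%) and in 36.5% of all distal peaks. TEAD words were found in 6 (16.7% and 16.9%), GATA words in 2 (5.56% and 7.72%) and RUNX words in 1 (2.78% and 8.84%). The words of the forkhead, HNF4 and ONECUT factors, which are bound by the families of 4 of the 8 genes, were in 0 of the 36 peaks, and in 3.65%, 0.32% and 4.57% of all distal peaks. A word for the core of the sites of CTCF, the protein that anchors chromatin loops, was added after the sequences of these peaks had been seen. This word, CC, any 3 bases, AG, any 2 bases and GGC, was found in 8 of the 36 peaks (22.2%) and in 10.9% of all distal peaks. In these windows 11 of the 36 peaks (30.6%) had none of the 8 words, beside 33.7% of all distal peaks. An AP-1 and a CTCF word together were in 0 of the 36 and in 1.45% of all distal peaks.

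The counts of several words changed with the window. Within 50 bases to either side of the summit, AP-1 words were in 6 of the 36 peaks (16.7%, beside 26.4% of all distal peaks) and CTCF words in 7 (19.4%, beside 8.25%). TEAD words were then in 3 (8.33%, beside 9.52%), GATA words in 1 (2.78%, beside 3.3%) and RUNX words in 0, beside 5.05%. Over the whole peak, GATA words were in 7 (19.4%), above the 13.8% of all distal peaks and so on the other side of it, RUNX words in 4 (11.1%, beside 12.7%) and forkhead words in 1 (2.78%, beside 5.95%). HNF4 and ONECUT words were in 0 of the 36 in each window, beside 0.146% and 2.07% of all distal peaks in the narrower window and 0.521% and 8.28% over the whole peak.

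**Figure D3:**
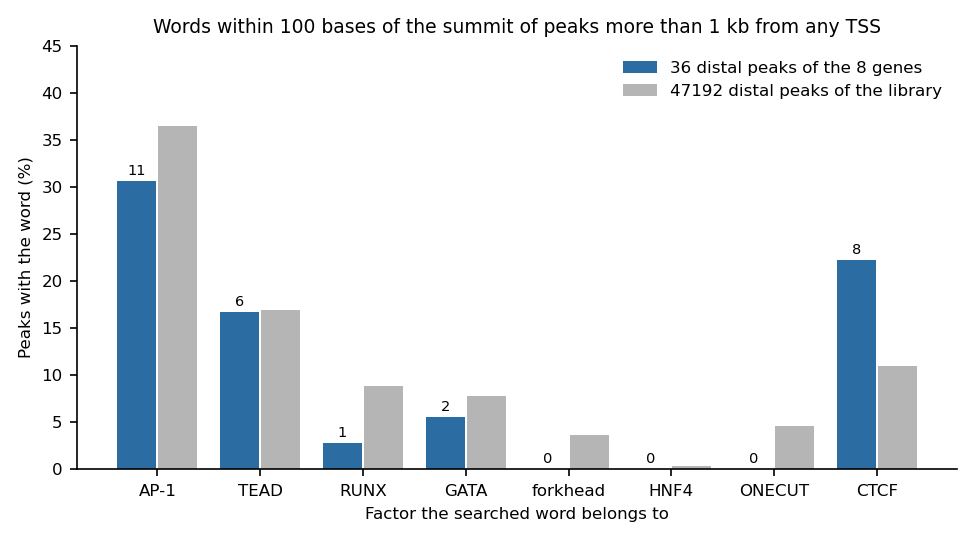
Share of peaks with each word (vertical axis, %) within 100 bases to either side of the summit, for the 36 peaks around the 8 genes (blue, with the number of peaks above the bar) and for all 47192 distal peaks of the library (grey). The words are named by the factors that bind them. In these windows AP-1 words are in 30.6% and 36.5% of the peaks and CTCF words in 22.2% and 10.9%, and the CTCF word was chosen after these sequences were seen.

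Gata4 encodes a zinc-finger factor of early endoderm and heart and was the gene with open promoters of its own. It lies on the minus strand at chr14:63198922-63271692 (mm10) and has 5 distinct starts. The peak at chr14:63245085-63245700 covered 2 neighbouring starts of protein-coding transcripts, which are CpG-rich (CpG observed over expected 0.66), with its summit 26373 bp into the gene and 48 bp upstream of the nearer start. It had 29 fragments at its summit (exact 95% Poisson interval 19.4 to 41.6), 7.12-fold enrichment and a −log10 q of 15.95. The −log10 q is the negative logarithm of the caller's p-value after adjustment for multiple testing, and the intervals cover counting error only. A weaker peak at chr14:63271503-63271687 ended 5 bp short of the most upstream start, which is poor in CpG (0.17), with 16 fragments (9.1 to 26.0) at its summit, 4.45-fold enrichment and a −log10 q of 5.77. The intervals of the fragment numbers of these peaks overlapped.

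Seen against other open promoters, those of Gata4 were low. The fold enrichment of its better peak was at percentile 23.9 among the protein-coding genes with a promoter peak, whose median was 9.86 (quartiles 7.27 and 12.4) with 64 fragments. A further peak lay 1134 bp upstream of the most upstream start, just past the limit of 1 kb, at chr14:63272826-63273096, with a fold enrichment of 7.2 and 27 fragments (17.8 to 39.3).

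Upstream of Gata4, 3 further peaks lay between genes, 10178, 37244 and 40514 bp from the gene. The highest of them by fold enrichment, 8.72, was the farthest, at chr14:63312206-63312558, with 44 fragments, and 73.9% of its bases are soft-masked as repeats in the reference sequence. All 3 had an AP-1 word within 100 bases of the summit, as did 4 of the 6 distal peaks of the gene, beside 36.5% of all distal peaks. The nearest of them had 2 such words, and the 50 bases to either side of its summit are shown, on the strand of the gene, because they hold 1 of them (capitals).
Gata4 upstream peak, chr14:63281974-63282074, minus strand: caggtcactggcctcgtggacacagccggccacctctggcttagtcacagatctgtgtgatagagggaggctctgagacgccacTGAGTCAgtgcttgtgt
The highest peak in the window, with a fold enrichment of 15.8 and 98 fragments, lay downstream at the promoter of Fdft1, which encodes squalene synthase.

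Gata6, which acts beside Gata4 in early endoderm, had no peak within 1 kb of any of its 6 starts and none in its body. The gene lies on the plus strand at chr18:11052064-11085635, and 5 of its 6 starts are CpG-rich. Its 3 peaks all lay upstream, in introns of the long noncoding gene 1010001N08Rik. The farthest, at chr18:11015814-11016271 and 35793 bp from the gene, had 45 fragments (32.8 to 60.2) at its summit, 12.08-fold enrichment and a −log10 q of 35.27, the highest fold enrichment among the 36 distal peaks. It held 3 AP-1 words. The others had fold enrichments of 4.99 and 5.52. From the nearest of them a stretch of 164.9 kb without a peak ran across the gene, and 22.1% of protein-coding genes started in one as long.

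Foxa2 and Foxa3 encode forkhead factors that open endodermal enhancers. Foxa2, a gene of 4.1 kb on the minus strand at chr2:148042877-148046969, had no peak at its 4 starts or in its body, and 2 of the starts are CpG-rich. Its only peak within 50 kb was at chr2:148082397-148082679, between genes and 35.4 kb upstream. This peak had 31 fragments (21.1 to 44.0) at its summit, 8.4-fold enrichment and a −log10 q of 19.56, above the upper quartile of all distal peaks by fold enrichment (8.14).

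A stretch of 127.6 kb without a peak, up to this upstream peak, held Foxa2, and 24.15% of protein-coding genes started in one as long. The peak had 1 TEAD word within 100 bases of the summit. Its summit region is shown on the strand of the gene as the only peak within 50 kb of Foxa2. It has no capitals because none of the words lay within 50 bases of the summit.
Foxa2 upstream peak, chr2:148082458-148082558, minus strand: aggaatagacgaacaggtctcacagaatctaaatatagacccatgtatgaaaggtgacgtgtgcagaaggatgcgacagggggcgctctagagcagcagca

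Foxa3 differed from Foxa2 in that its start lay beside a broad open region. The gene is on the minus strand at chr7:19013284-19023538 with 1 annotated start. The peak at chr7:19023589-19025013 was 1425 bp wide and had 68 fragments (52.8 to 86.2) at its summit, 8.32-fold enrichment and a −log10 q of 38.7. Its edge lay 51 bp upstream of the Foxa3 start and its summit 710 bp upstream, and it covered a TSS of the neighbouring gene Sympk, which encodes the RNA 3′-end processing factor symplekin. Which of the genes the open region serves cannot be told apart from a peak list. The 50 bases to either side of the summit are shown on the strand of Foxa3, with none of the words.
Foxa3 and Sympk promoter peak, chr7:19024198-19024298, minus strand: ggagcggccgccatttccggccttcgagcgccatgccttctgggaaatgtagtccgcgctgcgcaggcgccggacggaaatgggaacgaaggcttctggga
In the RefSeq promoter of Foxa3, from 250 bases before the start to 50 after it, the words GGGCGG of the GC box, CCAAT of the CCAAT box and TATAAA of the TATA box were found 2, 1 and 1 times. Among 32851 RefSeq promoters, 35.7%, 37.4% and 13.6% held them. A RefSeq promoter of Prox1, at chr1:190170778-190171077, held them in the same numbers and that of Onecut1 held the GC box 3 times, both with 0 peaks. The body of Foxa3 had no peak. Of its 8 peaks, 4 lay at a TSS of other protein-coding genes, among them the highest, with a fold enrichment of 10.66, at the promoter of Mypop.

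Hnf4a encodes the nuclear receptor at the centre of the hepatocyte network. The gene lies on the plus strand at chr2:163506808-163572910, and its 5 starts had no peak within 1 kb, the nearest peak being 11583 bp away. All 5 are poor in CpG (0.2 to 0.31). With peaks of any fold enrichment counted, Hnf4a had the most peaks in its body of the 8 genes. At 5-fold enrichment or more it was level with Gata4 and Onecut1. All 3 lay in the intron between the most upstream start and the other starts farther in, overlapping an intron of the antisense gene Hnf4aos. The highest, at chr2:163535037-163535234, had 23 fragments (14.6 to 34.5) at its summit, 5.66-fold enrichment and a −log10 q of 10.44. The others had fold enrichments of 4.73 and 3.73, with 17 and 16 fragments. The peak with 16 fragments held a CTCF word (capitals), shown here with 50 bases to either side of the summit because it is 1 of 2 around Hnf4a.
Hnf4a intronic peak, chr2:163532027-163532127, plus strand: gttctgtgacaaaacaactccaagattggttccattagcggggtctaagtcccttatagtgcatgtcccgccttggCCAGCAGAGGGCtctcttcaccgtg
Outside the body, the highest fold enrichments were 8.95 in an exon of Fitm2, which encodes a protein of lipid droplet formation, and 8.89 at chr2:163494055-163494422, 12.4 kb upstream in an exon of Hnf4aos. None of the 9 distal peaks of Hnf4a had an AP-1 word, beside 36.5% of all distal peaks of the library. The peak at chr2:163471177-163471383, within 1 kb of a TSS of 2310001K24Rik and so not among the 9, had 1.

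Onecut1, also known as Hnf6, encodes a factor of liver and pancreas progenitors that acts upstream of other hepatic regulators. It lies on the plus strand at chr9:74861921-74891781, and its first start is CpG-rich and was without a peak within 1 kb. A peak in an intron at chr9:74868388-74868607, 1904 bp from the second start, had 23 fragments (14.6 to 34.5) at its summit, 6.3-fold enrichment and a −log10 q of 11.71. The other 6 peaks all lay downstream. The highest of them, at chr9:74922010-74922318, had 47 fragments (34.5 to 62.5) at its summit, 10.67-fold enrichment and a −log10 q of 33.47. It lay nearer to a TSS of Fam214a (30566 bp) than to a TSS of Onecut1 (55526 bp). Upstream of the intronic peak no peak was found over 745.1 kb, and 10.7% of protein-coding genes started in a stretch at least as long. The sequences of the intronic peak, of the highest downstream peak and of another downstream peak are shown to compare their words, which are an AP-1 word in the first, a GATA and a TEAD word in the second and a CTCF word in the last (capitals).
Onecut1 intronic peak, chr9:74868403-74868503, plus strand: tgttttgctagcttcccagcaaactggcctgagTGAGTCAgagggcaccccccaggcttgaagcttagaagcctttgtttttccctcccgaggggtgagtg
Onecut1 highest downstream peak, chr9:74922077-74922177, plus strand: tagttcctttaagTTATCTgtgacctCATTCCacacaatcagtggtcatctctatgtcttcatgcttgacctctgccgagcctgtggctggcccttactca
Onecut1 downstream peak with a fold enrichment of 6.8, chr9:74904975-74905075, plus strand: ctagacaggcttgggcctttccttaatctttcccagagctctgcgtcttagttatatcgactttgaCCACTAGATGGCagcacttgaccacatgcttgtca

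Prox1 encodes a homeobox factor needed for hepatocyte migration and for lymphatic vessels, and it was the gene without any peak within 50 kb. It lies on the minus strand at chr1:190118035-190170714. The nearest peak was 196099 bp from a Prox1 start, and the stretch without a peak was 568.6 kb, where the median over protein-coding genes was 14.3 kb and 12.74% had one as long. No peak within 50 kb was found for 15.8% of protein-coding genes, and for 2.66% of those with a CpG-rich start like that of Prox1 (259 of 9740). The window had 20.9% of soft-masked bases and 0 unknown bases. Among markers of lymphatic and blood endothelium, 4 of 8 genes had a promoter peak, beside 53.7% of all protein-coding genes, and 2 had a peak over a TSS, beside 48.7%. The fold enrichments were 12.82 at Cdh5, 8.4 at Pecam1, 5.8 at Pdpn and 3.58 at Tek, while Lyve1, Flt4, Kdr and Tie1 had none. Of the markers of lymphatic vessels among them, Pdpn thus had a peak, over a TSS, and Lyve1 and Flt4 had none.

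Pdx1, the regulator of pancreas formation and of insulin transcription, had no peak at its start or in its 5.9 kb body. It lies on the plus strand at chr5:147269959-147275848. The nearest of its 6 peaks to the start, at a distance of 22276 bp, was at chr5:147292235-147293566, downstream and toward Cdx2, an intestinal regulator gene. This peak was 1332 bp wide, the widest of the 36 distal peaks, and had 45 fragments (32.8 to 60.2) at its summit, 8.21-fold enrichment and a −log10 q of 26.34. The others had fold enrichments of 7.09, 4.99, 4.8, 4.49 and 2.89. The peak with 7.09 lay nearer to a TSS of Gsx1 (38511 bp) than to that of Pdx1 (42301 bp). CTCF words were found in 4 of the 6 peaks of Pdx1, and in 4 of the 30 distal peaks of the other genes. The share over all distal peaks of the library was 10.9%. Because the CTCF word was chosen after these sequences had been seen, the counts only describe these peaks. The words at the summit of the nearest peak and of the upstream peak with a fold enrichment of 7.09 are shown in capitals, on the opposite strand to the word as given.
Pdx1 downstream peak, chr5:147293240-147293340, plus strand: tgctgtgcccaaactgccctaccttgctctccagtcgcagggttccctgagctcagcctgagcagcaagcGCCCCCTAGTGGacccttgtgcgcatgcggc
Pdx1 upstream peak, chr5:147227465-147227565, plus strand: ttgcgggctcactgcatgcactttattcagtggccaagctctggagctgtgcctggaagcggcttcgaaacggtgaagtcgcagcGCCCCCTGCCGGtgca

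The density of peaks placed the 8 genes on both sides of the typical gene. Over the gene and its flanks, Foxa3 (7.26) and Hnf4a (7.22) had the most peaks per 100 kb, followed by Pdx1 (5.67), Onecut1 (5.39) and Gata4 (5.21). Gata6 (2.25), Foxa2 (0.96) and Prox1 (0) were below the median of protein-coding genes, 3.94 (quartiles 1.54 and 6.64). The order of the densest genes changed with the limits. At 5-fold enrichment or more, Onecut1 had 5 peaks in 129.9 kb and Gata4 6 in 172.8 kb. Hnf4a then had 5 in 166.1 kb and Foxa3 3 in 110.3 kb, each of the latter at a TSS of another gene. Without peaks at a TSS of another gene, at any fold enrichment, Foxa3 had 4 peaks and Hnf4a 9 in these windows. Pdx1 then had 6 in 105.9 kb, Onecut1 7 in 129.9 kb and Gata4 8 in 172.8 kb. The 36 distal peaks had a median fold enrichment of 4.99 (2.74 to 12.08) and a median of 23.5 fragments (11 to 65). All distal peaks of the library had medians of 5.54 and 25, and 16 of the 36 were above the first.

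**Figure D4:**
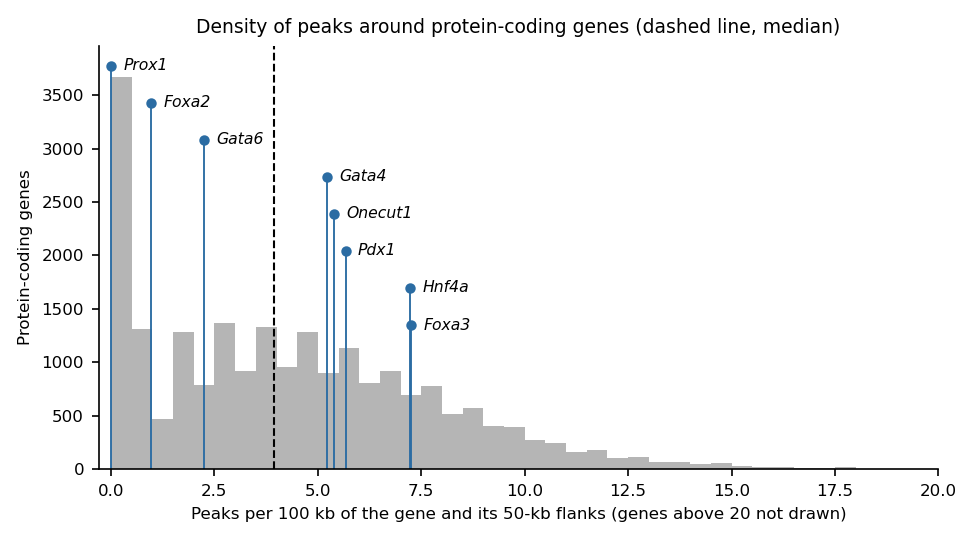
Number of protein-coding genes (vertical axis) by peaks per 100 kb of the gene and 50 kb on each side (horizontal axis). Blue stems mark the 8 genes, with heights that only separate the names, and the dashed line is the median of 3.94. Prox1, Foxa2 and Gata6 stand to its left and the other 5 genes to its right.

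Of 9 other genes of the same families, 4 had a promoter peak, beside 53.7% of all protein-coding genes. Gata3 (13.12, 119 fragments) and Gata2 (8.03, 61 fragments), regulators of blood and trophoblast, stand beside Gata4 with 7.12 and 29 fragments. Onecut2 had 7.09 and Prox2 10.65, the latter in a peak shared with another protein-coding gene, whereas Foxa1, Hnf4g, Gata1, Gata5 and Onecut3 had none. For Hnf4g no peak was found within 50 kb.

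Among other regulators of endoderm and pancreas, a promoter peak was found at 4 of 25, beside 53.7% of all protein-coding genes, with a peak over a TSS at 2, beside 48.7%, and at 3 of the 16 with a CpG-rich start, beside 82.9% of all genes with one. The 4 were Sox9 (8.13), a factor of ducts and cartilage, Cebpb (6.26, in a peak shared with another protein-coding gene), Nr1i2 (4.46) and Ptf1a (3.38). Among genes of cofactors, 6 of 8 had a promoter peak, beside the same 53.7%, and 4 had a peak over a TSS, beside 48.7%. They included Zfpm2 (8) and Zfpm1 (6.43), which encode the FOG cofactors of GATA factors, and the nuclear receptor genes Nr2f2 (7.98), Nr2f1 (3.74) and Rxra (2.52), while Ppargc1a and Nr0b2 had none.

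Target genes of liver and islet cells had promoter peaks in 4 of 30 cases, beside 53.7% of all protein-coding genes, and 1 of the 30 had a peak over a TSS, beside 48.7%. The 4 were Apoh (9.34) and Trf (5.67), each in a peak shared with another protein-coding gene, and Afp (8.14) and Apob (4.73), 526 and 689 bp from the TSS. This list shares 7 of its genes, Afp among them, with the 8 hepatocyte markers. A CpG-rich start was found at 2 of its 30 genes, beside 44.4% of all protein-coding genes. Of all protein-coding genes without one, 30.4% had a promoter peak. Alb, Ttr, Ins1 and Ins2, which encode albumin, transthyretin and insulin, had none. Of 8 epithelial markers, 3 had a peak, Krt19 (7.35), Grhl2 (5.4) and Krt8 (3.25), each beside and not over a TSS.

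**Figure D5:**
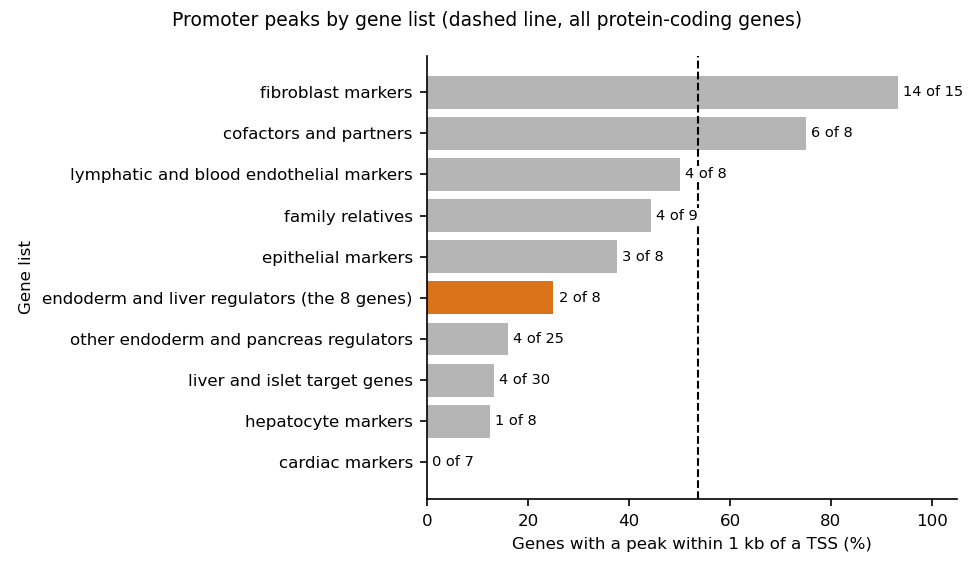
Share of the genes of each list with a peak within 1 kb of a TSS (horizontal axis, %), with the counts beside the bars. The orange bar is the 8 endoderm and liver regulators and the dashed line is the share of all protein-coding genes, 53.7%. Fibroblast markers (14 of 15) and cofactors (6 of 8) stand to the right of the line and the 8 genes (2 of 8) to its left.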

How the data were processed

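The parental NIH-3T3 peak list of 1 ATAC-seq library was described, without groups of samples to compare and without tests. Paired-end reads were mapped by the authors to mm10, who then removed duplicates and called peaks on whole fragments. The submitters' notes name STAR 2.5.3a, Picard, MACS2 2.1.1.20160309, SAMtools and deepTools. A correction of fragment ends for Tn5 insertion is not described, and removal of blacklisted peaks is stated for ChIP-seq and referred to for ATAC-seq. The authors deposited for each of 63456 peaks a fold enrichment, which is the ratio of the summit pileup to the expected pileup with 1 added to each. Its Poisson test gave the −log10 p and −log10 q that the authors deposited. The deposited score was not used.

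Coordinates are of mm10, counted from 1, with GENCODE M21 genes and the GRCm38 sequence. Fold enrichment and −log10 p together give the fragments under a summit, and 99.997% came within 0.02 of a whole number. On 3000 simulated summits this recovered 100.0%. The caller's background was 2.81 fragments, which was the expected number at 26.3% of the peaks. Around the 8 genes the expected number reached 9.57. The number of reads is not part of the list. RefSeq promoters of the same build matched 6 of the 8 genes. Scripts ran in Python 3.11.15 with SciPy 1.17.1, NumPy 2.4.6, matplotlib 3.10.9 and pandas 2.3.3.

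The members and lists were chosen with earlier results of these data known. The lists were family relatives, other endoderm and pancreas regulators, cofactors and partners, liver and islet target genes, and fibroblast, epithelial, hepatocyte, endothelial and cardiac markers. Named were all 8 genes, their promoter peaks, the highest peak by fold enrichment in the body and outside it within 50 kb, and from each list the genes with a promoter peak where they were 10 or fewer, otherwise the 3 with the highest fold enrichment. The values of 1 gene among the cofactors are not reported here. Further peaks, neighbouring genes, genes without a peak and all printed sequences were picked once their values had been seen. Alternatives were stricter q-values, a fold enrichment of at least 5, the summit in place of the interval, other distances, protein-coding transcripts only, windows of other size and CpG content at any annotated start.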

Additional observations from a re-analysis of the deposited data

How the results depend on the processing

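The counts were recomputed under stricter limits on q (0.01 and 1e-05) and on fold enrichment (5), by summit and at other distances, and likewise for word windows, gene lists and CpG content. Where the main value was above 0, 94 of 128 values stayed within 1.5 times of it. The other 63 values belong to counts of 0, most of them under limits that cannot raise a 0. Of these, peaks within 5 kb of a TSS of Onecut1 and forkhead words over the whole peak each rose to 1. When a peak had to cover the TSS, 1 promoter peak in 1 gene was counted in place of 3 in 2, and within 5 kb there were 6 in 3. The shares of all protein-coding genes were then 48.7% and 62.8%. With a fold enrichment of at least 5, 3 peaks in the bodies in place of 6 and 24 within 50 kb in place of 46 were counted. There were 25 peaks within 20 kb and 83 within 100 kb. CpG-rich genes numbered 5 in place of 2 when any annotated start was taken, an alternative added after seeing the data, as was the CTCF word. Each of these changes follows from how the alternative counts. For Prox1 the count was 0 within 100 kb too. No paired analysis was possible because the peaks come from 1 library. The lowest peak of the library had 10 fragments at its summit, and what lies below the caller's limit was not analysed here.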
